A study of Mus musculus with 16 samples.

Results

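The lipins are the 3 phosphatidate phosphatases Lpin1, Lpin2 and Lpin3, and their RNA was followed in 16 liver libraries from wild-type mice of the inbred strain C57BL/6J. The members were taken by symbol, and the 3 genes were found among the 78317 genes listed in the deposited tables. All 3 passed the filter on low counts that 14781 genes passed. The family was selected on the log2 fold change of Lpin1 with diet in females, one of the lowest there, so values from the female diet contrast, and sex differences of Lpin1, are given as a description without a test. The choice used no threshold. Diet in males for the 3 genes, and the sex differences of Lpin2 and Lpin3, were tested.

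The libraries formed 4 groups of 4: females on a normal diet, females on a high fat diet, males on a normal diet and males on a high fat diet. The normal diet had 4.5% of its calories from fat and the high fat diet 60%. Each diet had its own maker, so fat need not be the only difference between them. Per the labels' protocols, the mice arrived at 6 weeks of age, ate their diet for 10 weeks and were housed in groups, and RNA came from powdered whole liver. The question of the study was what high fat feeding does in each sex. The hour of tissue collection is not given in the sources used here. The labels number replicates without naming animals, so p-values measure the spread between these libraries.

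Lipins remove a phosphate from phosphatidate and so make diacylglycerol, the substrate for triglyceride, phosphatidylcholine and phosphatidylethanolamine. They move between the cytosol, where they are held in phosphorylated form, and the endoplasmic reticulum, where they act. Phosphatidate that escapes them can instead enter the CDP-diacylglycerol branch, which leads to phosphatidylinositol and cardiolipin. In liver, lipin-1 is also known as a nuclear partner of the coactivator PGC-1 alpha (Ppargc1a) and of PPAR alpha (Ppara), and its gene is known to be induced by fasting and by glucocorticoids. Lipin-2 is the lipin best known for phosphatidate phosphatase activity in liver, and lipin-3 is best known from intestine.

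The stretch before the start site of the lipin genes is shown for Lpin1 and Lpin2, the members whose RNA was lower together in females on the high fat diet. Sequences are the 250 bases upstream of a start site in RefSeq, build GRCm38.p6, written 5′ to 3′ on the gene's strand, with motif matches in capitals. The first is the one window listed for Lpin1 (chr12:16610967-16611216, minus strand), and the second is the window listed first for Lpin2 (chr17:71183282-71183531, plus strand).
Lpin1: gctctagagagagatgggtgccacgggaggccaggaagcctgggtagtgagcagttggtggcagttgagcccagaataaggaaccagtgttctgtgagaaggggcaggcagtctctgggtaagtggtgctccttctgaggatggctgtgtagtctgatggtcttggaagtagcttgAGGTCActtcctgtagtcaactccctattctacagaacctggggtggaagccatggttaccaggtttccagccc
Lpin2: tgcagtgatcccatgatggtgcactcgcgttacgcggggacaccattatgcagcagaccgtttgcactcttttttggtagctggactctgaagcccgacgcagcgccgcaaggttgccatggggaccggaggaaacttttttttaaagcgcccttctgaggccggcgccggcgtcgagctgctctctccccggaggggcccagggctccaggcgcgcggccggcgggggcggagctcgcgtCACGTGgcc
The Lpin1 window had 54.8% G and C and held 1 match to AGGTCA, 74 bases before the start. These letters are the core of the ROR element, the site of the clock's ROR and REV-ERB factors. The bases beside the core were not searched for, so the match does not show a full ROR element. Of 32851 windows of the same length, 14% held AGGTCA. The Lpin2 window had 65.2% G and C and held 1 E-box (CACGTG), which 6.02% of windows held, 9 bases before the start. The third window listed for Lpin2 held 3 CCAAT boxes (CCAAT), a motif in 33.8% of windows. Both strands were searched for these motifs and for the CRE (TGACGTCA, 1.55% of windows), the full glucocorticoid response element (0.00913%), the sterol response element (TCACNCCAC, 1.05%) and the D-box (TTATGTAA, 0.819%). None of the 7 motifs matched the windows listed for Lpin3, and no matches overlapped in the lipin windows. A match is a string of letters and no evidence of binding.

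Total expected counts were 22228115 to 41420589 per library. Lpin1 had 736 to 17088 counts per library, Lpin2 3834 to 17037 and Lpin3 50 to 119, so the values of Lpin3 carry the most counting error. Among pairs of libraries within a group, male high fat diet replicates 2 and 3 were the closest, with a chi-square of 4.07 per gene where the next closest pair of the group had 55.6 and the farthest 307.9. That exceeds sampling noise, for which 1 is expected, but it cannot tell separate livers from separate preparations of the same liver. The labels number them as separate replicates, and they were counted as separate libraries. The male results of the lipins are also given with the pair averaged into 1. In that setting 1179 genes were called in males in place of 1684. The other genes named as changed in males from the pathway, factor and response lists were all still called, with adjusted p-values of 2.23e-07 (Insig1) to 0.05 (Fgf21, just under the threshold). The muscle genes Acta1, Ckm and Myh4 were at 0 in all 16 libraries, as were the intestinal genes Lct, Sis and Cdx2. The rest of these lists had counts. Among muscle genes Mylpf had counts in every library, up to 0.556 CPM, while Tnnt3 was at 0 in 15 libraries and Atp2a1 in 13. Among intestinal genes Vil1 reached 0.599 CPM and was at 0 in 1 library, and Fabp2 and Apoa4 had counts in every library. All 8 hepatocyte markers had counts in every library.

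Lpin1, the member with the widest range, was high on the normal diet in both sexes and low on the high fat diet in both. Its values were 322.5, 217.1, 249.5 and 432.8 CPM (expected counts scaled by the library total and its TMM factor) in females on the normal diet, and 25.8, 36.5, 27.5 and 37.1 CPM in females on the high fat diet. In males they were 419.1, 234.6, 334.9 and 291.8 CPM on the normal diet and 53.4, 119.7, 122.9 and 77.5 CPM on the high fat diet. Every high fat diet library lay below every normal diet library of either sex, and the 4 female high fat diet libraries lay below all 4 male ones. The female means of the diets were 305.5 ± 95.7 and 31.7 ± 5.89 CPM (SD, n = 4), which is 9.63-fold lower on the high fat diet (-3.27 ± 0.29 on the log2 scale, SE). It ranked 10 from the lowest among the log2 fold changes of 14781 genes in that contrast, in which 11.5% of genes were called (adjusted p under 0.05). These female values are those that chose the gene.

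The male values did not enter that choice, but the gene and the test were chosen with earlier results of these data known. In males Lpin1 fell from 320.1 ± 77.7 to 93.4 ± 33.7 CPM (SD, n = 4). The log2 fold change was -1.78 ± 0.27 (SE), or 3.43-fold lower, with an adjusted p of 0.000752 by the quasi-likelihood test of edgeR with Benjamini-Hochberg adjustment. The diets did not overlap. In the male contrast 11.4% of genes were called, and 9.13% had all 4 high fat diet libraries below all 4 normal diet ones. Lpin1 ranked 77 from the lowest log2 fold change of 14781. With the close pair, replicates 2 and 3 of the high fat diet, averaged, the log2 fold change was -1.93 ± 0.30 (adjusted p = 0.00127), and Lpin1 was called in each of the 25 other settings tried.

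Lpin2 was lower on the high fat diet in every female library, with a smaller difference than Lpin1. Females had 290.9, 416.4, 485.7 and 431.6 CPM on the normal diet and 115.8, 168.9, 187.7 and 171.6 CPM on the high fat diet. The diets did not overlap, as for 9.55% of genes in the lower direction. The log2 fold change in females was -1.34 ± 0.18 (SE), or 2.52-fold lower, from 406.1 ± 82.4 to 161 ± 31.2 CPM (SD, n = 4). In males the values were 406.5, 428.3, 332.5 and 419 CPM on the normal diet and 224.5, 337, 342.3 and 259.2 CPM on the high fat diet. The ranges overlapped through 1 normal diet library, replicate 3, which lay below high fat diet replicates 2 and 3. The male log2 fold change of -0.45 ± 0.18 (SE) did not pass the edgeR test (adjusted p = 0.108, unadjusted 0.0208). An interval of 2 SE on each side runs from -0.80 to -0.09, so a difference of that size in males is neither shown nor absent. With replicates 2 and 3 averaged it was -0.53 ± 0.19 (adjusted p = 0.094).

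Lpin3 had low counts in all groups and the flattest pattern of the 3. Females had 2.30, 2.45, 1.98 and 2.91 CPM on the normal diet and 2.17, 1.92, 2.36 and 3.06 CPM on the high fat diet, ranges that nearly coincide. The log2 fold change in females was -0.03 ± 0.20 (SE). Males had 3.01, 3.40, 2.16 and 2.11 CPM on the normal diet and 3.34, 3.09, 4.05 and 3.32 CPM on the high fat diet. The male diets overlapped, and the log2 fold change of 0.37 ± 0.20 did not pass the edgeR test (adjusted p = 0.247). Its interval of 2 SE runs from -0.03 to 0.77. With the close pair averaged it was 0.35 ± 0.22 (adjusted p = 0.36).

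**Figure D1:**
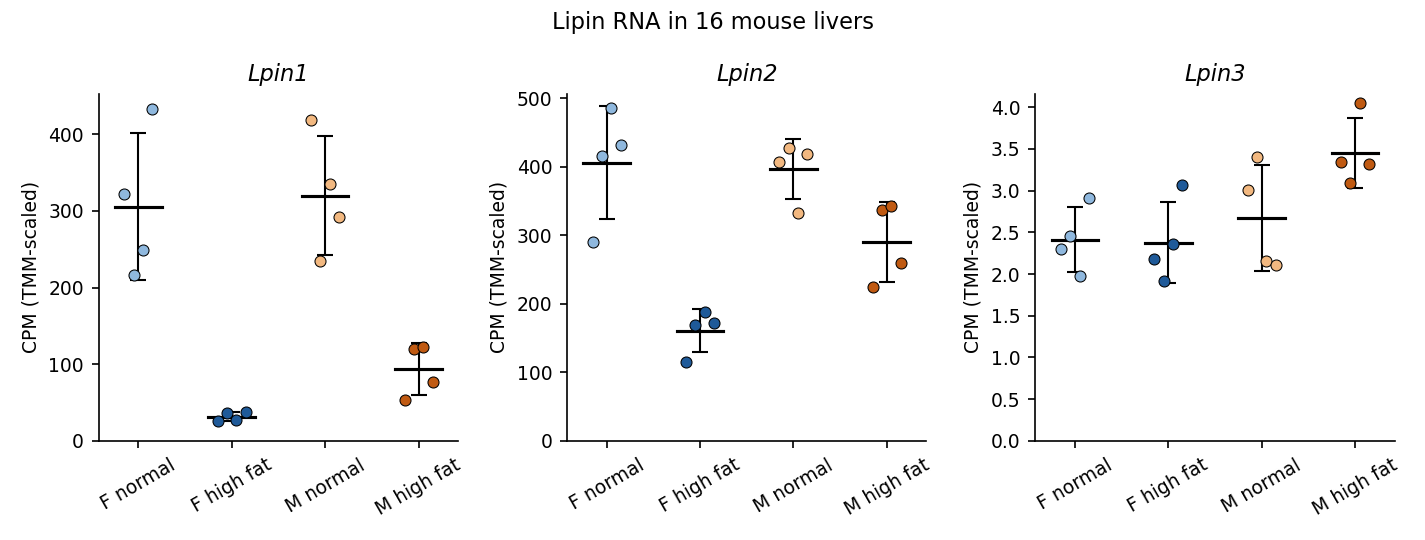
Level of Lpin1, Lpin2 and Lpin3 in CPM (TMM-scaled) on the y axis, from 0, with a separate scale for each gene, in females (F) and males (M) on the normal and the high fat diet. Points are libraries, the horizontal line is the mean and the bar 1 SD (n = 4). Lpin1 on the high fat diet sits below every normal diet library in both sexes, Lpin2 in females only, and Lpin3 stays between 1.92 and 4.05 CPM.

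Sex differences of the lipins were small on the normal diet and larger on the high fat diet. On the normal diet Lpin2 differed between females and males by 0.03 ± 0.18 on the log2 scale (SE; edgeR adjusted p = 0.92) and Lpin3 by -0.14 ± 0.20 (adjusted p = 0.673), in a contrast where 15.7% of genes were called. The interval of 2 SE was -0.32 to 0.39 for Lpin2 and -0.55 to 0.26 for Lpin3. Lpin1 differed by -0.07 ± 0.26, given as a description. Levels on the normal diet overlapped between the sexes for each of the 3 genes.

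On the high fat diet Lpin2 was lower in females, at 161 ± 31.2 CPM against 290.7 ± 58.2 CPM in males (SD, n = 4). The log2 difference was -0.85 ± 0.18 (SE), with an edgeR adjusted p of 0.0032, in a contrast where 20.4% of genes were called. The sexes did not overlap, as for 12.4% of genes in the direction of lower values in females. With male replicates 2 and 3 averaged the difference was -0.75 ± 0.19 (adjusted p = 0.0114). Lpin3 was likewise without overlap, with a highest female value of 3.06 CPM and a lowest male value of 3.09 CPM. Its log2 difference of -0.54 ± 0.20 did not pass the test (adjusted p = 0.0671), and it passed at 0.0396 without female high fat diet replicate 4, the highest female library. With male replicates 2 and 3 averaged it was -0.50 ± 0.22 (adjusted p = 0.126). Lpin1 differed by -1.56 ± 0.27, or 2.94-fold lower in females, which is a description. The change with diet in females minus that in males was -1.49 ± 0.38 for Lpin1, -0.89 ± 0.25 for Lpin2 and -0.40 ± 0.29 for Lpin3 on the log2 scale. These differences hold the female contrast and have no test here.

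Levels of the 3 genes can be compared with each other in TPM, which divides by transcript length. In females on the normal diet Lpin2 had 89.3 ± 23.1 TPM, Lpin1 65.9 ± 21.1 TPM and Lpin3 0.85 ± 0.13 TPM (SD, n = 4). In males on the normal diet the levels were 85.7 ± 9.66, 68 ± 13.7 and 0.94 ± 0.23 TPM in the same order. Lpin1 and Lpin2 overlapped there, and Lpin1 was above Lpin2 in 3 libraries, 1 of females and 2 of males. On the high fat diet the order was the same in all 8 libraries and the ranges of Lpin1 and Lpin2 parted. Lpin2 had 41.8 ± 8.59 TPM in females and 66.6 ± 13 TPM in males, Lpin1 had 8.1 ± 1.79 and 21.1 ± 7.4 TPM, and Lpin3 had 1 ± 0.24 and 1.29 ± 0.14 TPM. Lpin3 was the lowest in every library.

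The makeup of lipin RNA therefore differed with diet. Lpin1 gave 42.2% ± 9.89 of the summed lipin TPM in females on the normal diet and 16.1% ± 2.56 on the high fat diet, and 43.8% ± 7.54 and 23.1% ± 3.32 in males (SD, n = 4). Lpin2 gave 57.2% and 81.9% in females and 55.5% and 75.4% in males. The Lpin3 share went from 0.555% to 2.01% in females and from 0.609% to 1.5% in males while its own level stayed near 1 TPM. The summed level was 156 ± 32.2 TPM in females and 154.6 ± 7.13 TPM in males on the normal diet, against 50.9 ± 9.82 and 89 ± 20.4 TPM on the high fat diet. These shares and sums rest on Lpin1, which was chosen for its fall, and are a description. The sums carry no TMM scaling. On log2(TPM + 1) the median log2 fold change of all genes with diet was 0.149 in females and 0.051 in males. In the TMM fit it was 0.002 and 0.011.

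**Figure D2:**
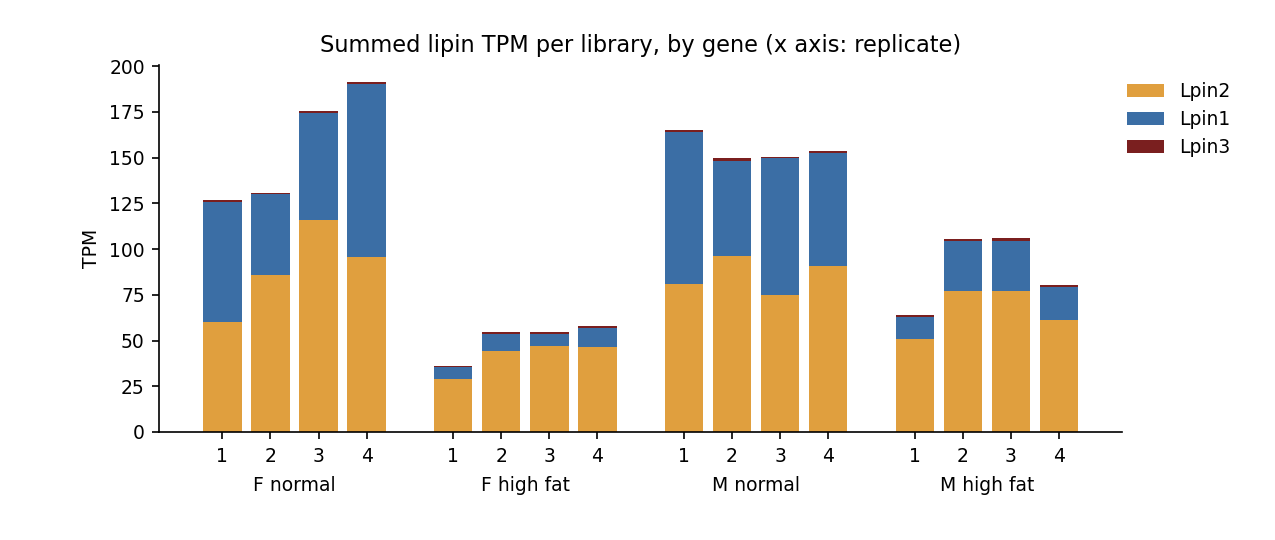
Summed TPM of the 3 lipins (y axis) in each library, stacked by gene, with replicate numbers on the x axis under each group. In normal diet bars Lpin1 makes up 33.6% to 52%, while high fat diet bars are lower and mostly Lpin2. Lpin3 is the thin band at the top.

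Whole liver holds several cell types, and fewer cells of a type and less RNA per cell cannot be told apart in these libraries. The summed level of the 8 hepatocyte markers was 110178 to 123516 CPM in females on the normal diet and 85150.5 to 104581 CPM on the high fat diet. In males it was 90093.7 to 100260 CPM and 56517.1 to 80785.8 CPM, so the sum was lower with the high fat diet in both sexes. The sum mostly follows Alb, which had 37642.9 to 96184.4 CPM, where Apoa1, the next highest, had at most 8957.69 CPM. Of the 8 markers 2 fell in females and 3 in males, or 2 in males with the close pair averaged. For all marker lists, the share of all genes called was 11.5% in females and 11.4% in males. Of 7 macrophage markers 3 rose in females, with sums of 234.2 to 339.8 CPM on the normal diet and 392.2 to 582.9 CPM on the high fat diet. In males 1 of the 7 rose, with sums of 221 to 353.4 and 199.3 to 399.7 CPM. Adipocytes are rich in lipin-1, and the adipocyte list summed to 7.93 to 13.4 CPM in females on the normal diet and 10.2 to 16.2 CPM on the high fat diet. In males the sums were 11.9 to 17 CPM and 18.5 to 50.4 CPM, and 3 of the 4 tested genes rose there, or 1 with the close pair averaged. Adipoq reached at most 1.46 CPM, Plin1 0.596 CPM, Lep 0.241 CPM and Retn 0.215 CPM, with Lep at 0 in 10 libraries and Retn in 6. The genes that rose in males were Cidec, a lipid droplet gene that steatotic hepatocytes also express, Cfd and Lipe, which reached 26.9, 10.2 and 13.5 CPM. Stellate cell markers rose in 2 of 5 genes in females, 1 of 5 cholangiocyte markers fell in males, and the 2 tested intestinal genes, Apoa4 and Fabp2, which liver also expresses, rose in both sexes. The part of these cell types in the lipin values was not tested.

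Around phosphatidate, 6 lists with 42 genes were followed, of which 37 were tested. In females 1 of them fell, or 2.7%, against 11.5% of all genes, and none (0) rose by edgeR or DESeq2, with 2 rises at an unadjusted p under 0.05. The direction of these female calls depended on the scaling: 3 rose and 1 fell under library totals alone, and 3 rose on log2(TPM + 1), where the median of all genes was itself 0.192 and 0.149. The median log2 fold change was -0.10, against 0.00 over all genes. In males 5 rose and 2 fell, or 18.9% against 11.4% of all genes, with a median of 0.04 against 0.01. The lowest log2 fold change among the 37 in females, named after its value was seen, was that of Chpt1, which makes phosphatidylcholine from diacylglycerol, at -0.66 ± 0.22 (SE; edgeR adjusted p = 0.0566).

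Phosphatidate is built by acylation of glycerol 3-phosphate and then of lysophosphatidate. Of the 4 glycerol-3-phosphate acyltransferases, Gpat4, an enzyme of the endoplasmic reticulum, fell in females by 0.58 ± 0.13 on the log2 scale (SE; edgeR adjusted p = 0.008), from 199.9 ± 35.7 to 133.5 ± 7.76 CPM (SD, n = 4). In males it fell by 0.45 ± 0.13 (adjusted p = 0.0306), with 271.4 ± 29.7 and 198.8 ± 24.3 CPM. The male call was lost without male normal diet replicate 2, 3 or 4 or high fat diet replicate 1 or 4 (adjusted p 0.0587 to 0.0933), and under library totals alone (0.0692). Gpat3 rose in males from 16.5 ± 4.35 to 27.4 ± 4.76 CPM, by 0.72 ± 0.17 (adjusted p = 0.00945), while in females it had -0.42 ± 0.16 (adjusted p = 0.103). Among 6 lysophosphatidate acyltransferases, Agpat2, whose loss causes lipodystrophy, rose in males from 89.7 ± 9 to 142.7 ± 18.2 CPM. The log2 fold change was 0.67 ± 0.11 (adjusted p = 0.000955), against -0.24 ± 0.11 in females (adjusted p = 0.163). For both genes the changes in the sexes differed, by -1.14 ± 0.23 for Gpat3 (adjusted p of the interaction 0.0274) and -0.91 ± 0.16 for Agpat2 (0.00818), in a contrast where 0.677% of genes were called. The difference for Gpat3 was lost without female high fat diet replicate 1 or 4, without normal diet replicate 2 or 4 of the females and without replicate 3 of the males on that diet (0.0526 to 0.0783).

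Besides lipins, phosphatidate is dephosphorylated by integral membrane lipid phosphate phosphatases, of which 4 were tested. Plpp3, which acts mostly on lipids outside the cell, rose in males from 120.4 ± 9.4 to 188 ± 33.9 CPM, by 0.64 ± 0.15 (edgeR adjusted p = 0.0096). In females it had 0.28 ± 0.15 (adjusted p = 0.236). Among 7 genes that use diacylglycerol or make it from monoacylglycerol, Mogat1, a monoacylglycerol acyltransferase that makes diacylglycerol without lipins, rose in males by 2.92 ± 0.52 (adjusted p = 0.00163). It was a rare RNA, with 0.618, 0.0856, 0.432 and 0.812 CPM on the normal diet and 2.16, 5.60, 4.02 and 3.05 CPM on the high fat diet. All 4 high fat diet libraries were above all normal diet ones, and the share of all genes with that pattern in males is not given here. The triglyceride synthases Dgat1 and Dgat2 were not called in either sex, nor were the 7 genes of the CDP-diacylglycerol branch. In that branch 0 genes were called by edgeR or DESeq2, with 1 at an unadjusted p under 0.05 in females and 0 in males. Of all genes 11.5% were called in females and 11.4% in males, a share from which 7 genes are too few to be told apart.

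Phosphatidate is also made by diacylglycerol kinases and phospholipase D, and 9 such genes were tested. In males Pld1 rose by 0.82 ± 0.22 (edgeR adjusted p = 0.0204), from 6.75 ± 1.41 to 11.98 ± 4.15 CPM, with overlap between the diets. Its call was lost without male normal diet replicate 1 or 4 or high fat diet replicate 1 or 4 (adjusted p 0.0516 to 0.0662), and with only the 2 groups compared (0.0577). Dgkz, a kinase that turns diacylglycerol back into phosphatidate, went from 18.4 ± 0.578 to 13.8 ± 0.908 CPM in males, where it fell by 0.42 ± 0.11 (adjusted p = 0.0253). That call was lost without male normal diet replicate 1 or 2 or high fat diet replicate 2 or 4 (0.0538 to 0.0671), under library totals alone (0.0836) and with no filter on low counts (0.057). Without male high fat diet replicate 4, 4 of the 37 genes were called in males in place of 7.

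**Figure D3:**
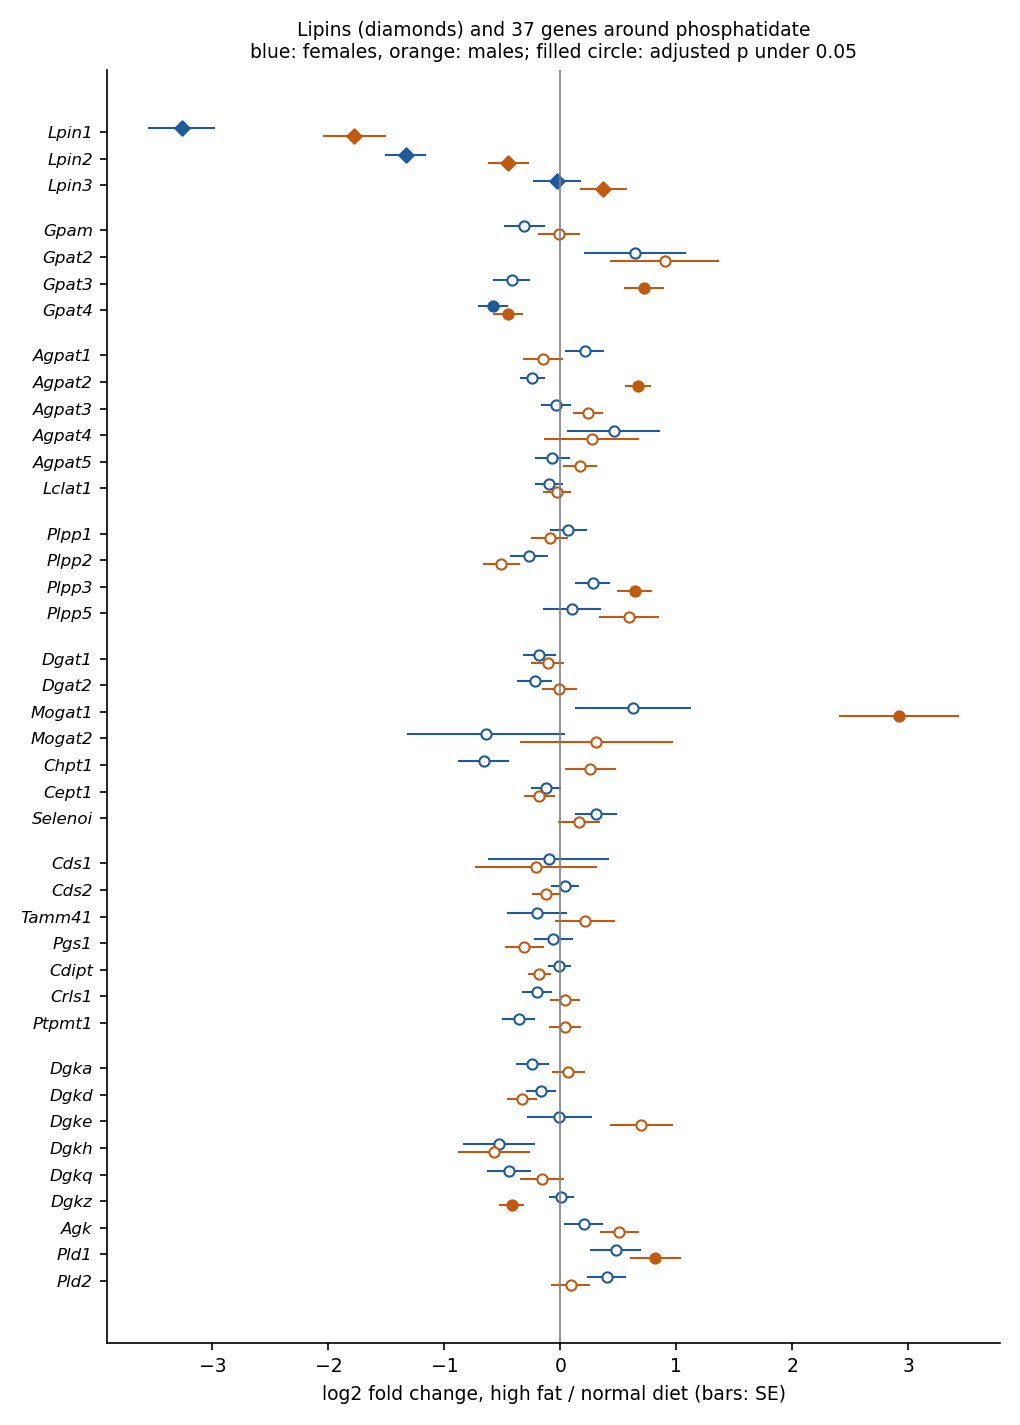
Log2 fold change with the high fat diet (x axis, bars 1 SE) for the lipins (diamonds) and the 37 tested genes around phosphatidate, in females (blue) and males (orange). Filled circles had an adjusted p under 0.05, and diamonds carry no mark for a test. Lpin1 and, in females, Lpin2 lie left of all 37 genes, and the filled circles are mostly male.

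Lipin activity is set by phosphorylation, through the kinase complex mTORC1 and the phosphatase complex of Ctdnep1 and Cnep1r1. None (0) of the 4 genes tested there was called in either sex by edgeR or DESeq2, and 1 had an unadjusted p under 0.05, in females. Of all genes 11.5% were called in females and 11.4% in males, and 4 genes are too few to tell apart from that share. Ctdnep1, the catalytic subunit, had log2 fold changes of 0.05 ± 0.12 in females (adjusted p = 0.802) and -0.04 ± 0.12 in males (0.871). Cnep1r1, its regulatory subunit, had 0.02 ± 0.10 (0.899) and 0.14 ± 0.10 (0.385). RNA levels carry no measure of phosphorylation.

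Of 10 factors and coactivators tied to lipins, 2 fell in females and 1 in males, or 20% and 10%, against 11.5% and 11.4% of all genes. Hnf4a, a nuclear receptor that defines hepatocytes, fell by 0.60 ± 0.12 in females (edgeR adjusted p = 0.00331), from 557.3 ± 10.1 to 368.7 ± 42.4 CPM. In males it fell by 0.47 ± 0.11 (adjusted p = 0.0139), from 701.6 ± 102.9 to 507.8 ± 18.8 CPM, a call lost without male normal diet replicate 3 (0.0582). Srebf2, the regulator of cholesterol synthesis genes, fell in females by 0.42 ± 0.13 (adjusted p = 0.0448), a call lost in 18 of 25 other settings. Among these were the fits without normal diet replicate 1, 2 or 4 of the males or 3 or 4 of the females, high fat diet replicate 1, 2 or 4 of the females, or any male high fat diet replicate, left out in turn (0.0501 to 0.187). Ppargc1a, the partner of lipin-1, was lower in every high fat diet library in females, as were 9.55% of genes, at 18.1 ± 5.35 and 10.5 ± 2.09 CPM. Its log2 fold change of -0.79 ± 0.26 did not pass (adjusted p = 0.0583), and in males it was -0.07 ± 0.26 (0.89). The glucocorticoid receptor Nr3c1 had 0.05 ± 0.15 in females and 0.26 ± 0.15 in males (adjusted p = 0.864 and 0.258). Ppara had -0.10 ± 0.30 and 0.36 ± 0.30 (0.867 and 0.47), and Srebf1, the regulator of fatty acid synthesis genes, 0.46 ± 0.31 and 0.56 ± 0.31 (0.361 and 0.26).

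Several genes that respond to glucocorticoids, the hormones known to induce Lpin1, fell on the high fat diet in both sexes. Of 13 tested, 8 fell in females, or 61.5% against 11.5% of all genes, with a median log2 fold change of -0.89. In males 5 fell, or 38.5% against 11.4%, with a median of -0.36. The male list was mixed: 8 of the 13 had a log2 fold change below 0, and by DESeq2 5 fell and 2 rose. Tat, a tyrosine-degrading enzyme, had 2150.3, 2629.8, 1855.4 and 1963.7 CPM in females on the normal diet and 467.1, 527.9, 774.4 and 675 CPM on the high fat diet. It fell by 1.81 ± 0.19 in females (edgeR adjusted p = 1.63e-05) and by 1.42 ± 0.19 in males (0.000125). Fkbp5, a chaperone partner of the glucocorticoid receptor, fell by 1.42 ± 0.16 in females (4.18e-05) and had -1.69 ± 0.16 in males (5.91e-06). Tsc22d3, which encodes the glucocorticoid-induced leucine zipper, fell by 1.55 ± 0.23 (0.000477) and 1.14 ± 0.23 (0.00405). Zbtb16, a zinc finger repressor, fell in females by 2.74 ± 0.37 (0.000383), from 22.6 ± 2.36 to 3.41 ± 2.12 CPM, and had -0.72 ± 0.33 in males (0.177). No glucocorticoid was measured, and the part of these hormones in the lipin values was not tested. The list, like the others here, was chosen with earlier results of these data known. With only the 2 male groups in the fit, 8 of the 13 were called, 6 lower and 2 higher.

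Several targets of the sterol-regulated SREBP factors fell as well. Of 12 tested, 7 fell in females, or 58.3%, with a median log2 fold change of -0.69, and 6 in males, or 50%, with a median of -1.16, against 11.5% and 11.4% of all genes. Idi1, an enzyme of isoprenoid synthesis, fell by 2.33 ± 0.32 in females (edgeR adjusted p = 0.000364) and by 1.67 ± 0.31 in males (0.00313). Insig1, which holds these factors inactive, fell by 0.58 ± 0.10 in females (0.00119) and 1.65 ± 0.10 in males (1.71e-08). Male calls numbered 5 with high fat diet replicates 2 and 3 averaged. The part of SREBP factors in the lipin values was not tested.

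Fatty acid oxidation genes under PPAR alpha, the genes that lipin-1 is known to raise with Ppargc1a, were called about as often as all genes. Of 14 tested, 1 fell in females (7.14% against 11.5%) and 2 rose in males (14.3% against 11.4%), with medians of -0.15 and 0.03. Slc25a20, the carnitine carrier of mitochondria, fell in females by 0.43 ± 0.13 (edgeR adjusted p = 0.0403), a call lost in 13 of 25 other settings. These included the fits without male normal diet replicate 1 or 2, any female normal diet replicate, or female high fat diet replicate 1 or 4, left out in turn (0.052 to 0.13). Pdk4, a brake on glucose oxidation, rose in males from 3.25 ± 0.387 to 20.7 ± 4.93 CPM, by 2.67 ± 0.52 (adjusted p = 0.00548). Fgf21, a fasting hormone rather than an enzyme of oxidation, rose in males by 2.43 ± 0.70 (adjusted p = 0.0377), a call lost in 12 of 25 other settings (0.0516 to 0.109). These included the fits without female normal diet replicate 2 or 4, any male normal diet replicate, or male high fat diet replicate 1, 3 or 4, left out in turn.

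Clock genes include the repressor that binds the ROR element. Only the core of that element (AGGTCA) was searched for, which the Lpin1 window and 14% of all windows hold. Of 12 tested, 2 rose and 5 fell in females, or 58.3% against 11.5% of all genes, and 1 rose and 9 fell in males, or 83.3% against 11.4%. Nr1d1, which encodes REV-ERB alpha, had 9.16, 9.99, 16.3 and 17.8 CPM in females on the normal diet and 59.4, 44.2, 40.6 and 40.8 CPM on the high fat diet. In males it had 18.9, 27.2, 18.8 and 29.5 CPM on the normal diet and 6.61, 6.99, 5.77 and 5.76 CPM on the high fat diet. It rose in females by 1.79 ± 0.21 (edgeR adjusted p = 7.6e-05) and fell in males by 1.91 ± 0.22 (5.68e-05). Per1, a clock repressor that is also on the glucocorticoid list, fell in females by 1.75 ± 0.31 (0.00278) and in males by 1.32 ± 0.30 (0.0114). Cry1, another repressor, fell in females by 1.5 ± 0.22 (0.00035) and had 0.20 ± 0.21 in males (0.587). Per2 fell by 0.65 ± 0.13 in females (0.00347) and 0.86 ± 0.13 in males (0.000325). Collection time was not given, and neither its part nor that of the clock genes in the lipin values was tested.

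**Figure D4:**
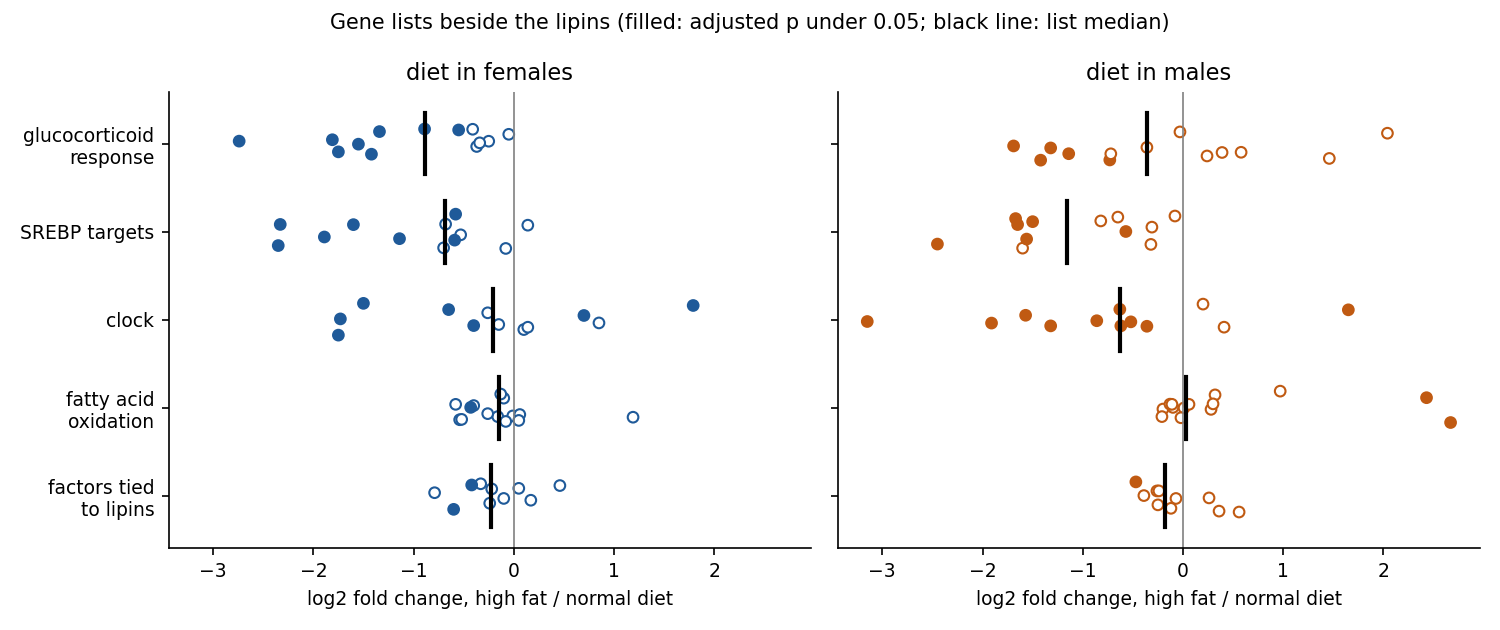
Log2 fold change with the high fat diet (x axis) of each tested gene in 5 lists, in females (left) and males (right). Filled points had an adjusted p under 0.05, black lines are list medians, and points are spread vertically for legibility. Medians of the glucocorticoid and SREBP lists lie left of 0 in both panels, at -0.89 and -0.69 in females and -0.36 and -1.16 in males.

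The pattern of each lipin over the 16 libraries was compared with 10648 genes by Pearson's r of log2 CPM, as a description without a test. The libraries share the 4 groups, so a gene that follows diet and sex alike scores high, and r of the deviations from group means is given beside it. Lpin1 was most like Axin1, a scaffold of the beta-catenin destruction complex (r = 0.955, within groups 0.296), Slc25a32, the mitochondrial folate carrier (0.952, 0.320) and Pgk1, a glycolytic kinase (0.952, 0.483). Next came Tsc22d3 (0.942, 0.720) and Pfkfb1, which sets fructose 2,6-bisphosphate in liver (0.940, 0.733). For the first 3 the likeness was mostly between groups, and for Tsc22d3 and Pfkfb1 it also held within them.

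Lpin2 was most like Slc25a32, with r of 0.973 over the 16 libraries and 0.950 within groups, so that library by library the genes were high and low together. In females Slc25a32 had 58, 69, 72.2 and 70.8 CPM on the normal diet and 24.8, 33.8, 33.4 and 30.2 CPM on the high fat diet. In each of these groups replicate 1 was the lowest for Slc25a32 and for Lpin2. Pck1, the gluconeogenic enzyme that glucocorticoids induce, followed (0.929, within groups 0.629), then the elongation factor Ell2 (0.927, 0.649), Foxo1, a factor restrained by insulin (0.925, 0.697), and Il6ra, the interleukin-6 receptor (0.916, 0.649). Within groups, Slc25a32 was at percentile 100 of the genes compared. Foxo1 was at 95.4, Ell2 and Il6ra at 92.5 and Pck1 at 91.2, so many other genes followed Lpin2 there as closely. Lpin3 had weaker likeness, led by Ssb (0.772, within groups 0.711) and Dyrk1b (0.770, 0.672), then Nlrx1 (0.757), Agxt2 (0.756) and Ewsr1 (0.754). Among the lipins, Lpin1 and Lpin2 had an r of 0.900 over the 16 libraries and 0.338 within groups. Lpin3 had 0.012 with Lpin1 and 0.155 with Lpin2, and 0.205 and 0.216 within groups.

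**Figure D5:**
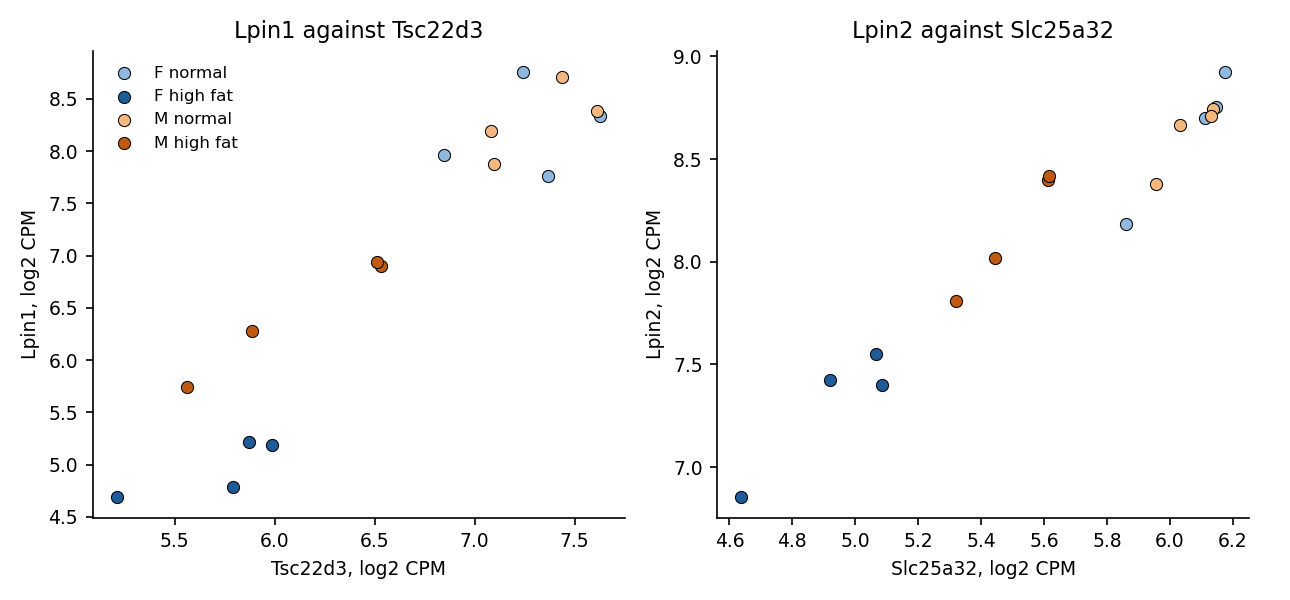
Lpin1 against Tsc22d3 (left) and Lpin2 against Slc25a32 (right), both axes in log2 CPM, with a point per library coloured by group. High fat diet libraries lie at the lower left in the left panel. In the right panel they all lie to the left, but the ranges of Lpin2 overlap. There male high fat diet replicates 2 and 3 (8.40 and 8.42) lie above female normal diet replicate 1 (8.18) and male normal diet replicate 3 (8.38). In the right panel the points within each group also rise together.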

How the data were processed

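Poly(A) RNA of mouse liver was sequenced in 16 libraries. The authors deposited RSEM expected counts and TPM per gene, made with STAR and RSEM on GRCm39, per the submitters' processing notes. RSEM splits ambiguous reads between genes, and 4.89% of the expected counts were not whole, although all entries of the 3 lipins were. Expected counts were rounded, filtered with filterByExpr of edgeR 4.0.16 (R 4.3.3; 14781 genes with 99.94% of counts) and scaled by TMM. The edgeR quasi-likelihood test (robust, two-sided) was fitted to all 16 libraries with 1 mean per group, and p-values were adjusted by Benjamini-Hochberg over all tested genes, with a threshold of 0.05. TPM served for levels between genes. SE is the log2 fold change divided by the root of the F statistic. The fit was tested on simulated data.

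Members, gene lists and tests were chosen with earlier results of these data known. Named genes are the lipins, up to 3 called genes with the smallest p per list and sex, Ctdnep1, Cnep1r1, Ppargc1a, Ppara, Nr3c1 and Srebf1, and the 5 genes most like each lipin. Some genes that this rule chose are left out here. Others are named as examples. Identifiers were matched to symbols without their version (51487 of 78317). The lipins are ENSMUSG00000020593.17 (Lpin1), ENSMUSG00000024052.18 (Lpin2) and ENSMUSG00000027412.13 (Lpin3), none of whose exons overlapped another gene in the supplied annotation. That annotation and the promoters are GRCm38, so no GRCm39 coordinates are given. Whether counting used the strand is not given in the sources used here. The labels give 1 batch for the series. Alternatives were DESeq2 1.42.0, limma 3.58.1 on log2(TPM + 1) and log2(TPM + 0.1), other scalings, no filter, only the 2 groups compared, the replicate number as a block, the close pair averaged and each library left out.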

Additional observations from a re-analysis of the deposited data

Results flagged for a closer look

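No lipin library stood apart from the other 3 of its group by Dixon's criterion (12 groups of values checked, none (0) beyond it). For 6 genes of the lists the change with diet differed between females and males, by the interaction term of the edgeR quasi-likelihood fit. Such genes were 5.41% of the 37 tested around phosphatidate, 8.33% of 12 SREBP targets and 25% of 12 clock genes. The share was 0% on the glucocorticoid, fatty acid oxidation, factor and phosphatase complex lists, and 0.677% over all genes. These lists were chosen with earlier results of these data known. Of the 6 genes, phosphatidate synthesis held 2. Gpat3 differed by -1.14 (adjusted p = 0.0274), a difference lost in 7 of 24 other settings, and Agpat2 by -0.91 (adjusted p = 0.00818). For Insig1, which fell in both sexes, the difference was 1.07 (adjusted p = 0.0011), the fall in males being the larger. Nr1d1 differed by 3.71 (adjusted p = 5.54e-06), with a rise in every female and a fall in every male high fat diet library against the normal diet range. Such a fall in males held for 9.13% of genes, and the share for such a rise in females is not given here. Dbp, a clock output gene, differed by 2.27 (adjusted p = 0.000837). It rose in females by 0.70 ± 0.19 (adjusted p = 0.0263), a call lost without female normal diet replicate 1 or 2 or high fat diet replicate 1 or 4 (0.062 to 0.087), and fell in males by 1.57 ± 0.20 (adjusted p = 0.000115). Cry1 differed by -1.70 (adjusted p = 0.0112). With the close pair of male high fat diet libraries (replicates 2 and 3) averaged, all 6 differences passed (adjusted p 3.56e-05 to 0.0392).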

How the results depend on the processing

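The calls of Lpin1 in males (log2 fold change -1.94 to -1.59 over 25 settings, adjusted p 5.64e-10 to 0.00577) and of Lpin2 between the sexes on the high fat diet (-0.93 to -0.67, 0.000109 to 0.0207) were kept in each. Replicate numbers did not pair the samples: 1 of 8 same-numbered pairs had a correlation of deviations above 0.1, and in 2 of 8 the best match had the same number. With that number as a block, Lpin2 in males was -0.48 ± 0.14 and called (adjusted p = 0.0382), and its sex difference on the normal diet was -0.0018. Leaving out 1 library in turn, that difference ran from -0.05 to 0.17, the one of Lpin3 from -0.24 to 0.004, and the sex difference of Lpin3 on the high fat diet from -0.68 to -0.44. On log2(TPM + 1) Lpin1 in females was -2.85 and the interaction of Lpin3 -0.13.

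The median of all genes in females moved from 0.002 to 0.192 with library totals, 0.149 on log2(TPM + 1) and 0.222 on log2(TPM + 0.1), and genes called then numbered 2690 (2318 higher, 372 lower), 2926 (2644, 282) and 2763 (2487, 276) in place of 1700 (848, 852). Pathway genes called in females numbered 4 (3 higher, 1 lower), 3 (all higher) and 2 (both higher) there, against 1 lower in the TMM fit. All were lower by DESeq2 (2), with the block (2), with only the 2 groups compared (2) and without 1 library (1 to 3, with 3 without female high fat diet replicate 1 and 2 without its replicate 3 or male high fat diet replicate 1). Pathway genes called in males ranged from 4 to 9 without 1 library. Genes called without 1 library ranged from 947 to 1874 in females, 1113 to 2043 in males, 1325 to 2766 for sex on the normal diet, 1974 to 3062 for sex on the high fat diet and 51 to 176 for the interaction. Sex on the high fat diet gave 1958 with only the 2 groups compared, and the interaction 341 by DESeq2 and 58 with the close pair averaged, in place of 100. On both TPM scales the calls of Gpat4 and Hnf4a in both sexes, Per2 in females, Dgkz in males and the interaction of Gpat3 were lost (adjusted p 0.0501 to 0.12). Causes of these shifts were not tested. Counts of 50 to 119 limit what can be said of Lpin3.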
